A study of Homo sapiens with 2 samples.

Results

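The respiratory chain of the inner mitochondrial membrane passes electrons from NADH and succinate to oxygen through complexes I to IV, and the proton gradient that complexes I, III and IV build drives the ATP synthase, complex V. The subunits of complexes I, III, IV and V come from both genomes of the cell, since the mitochondrial DNA encodes a small hydrophobic core and the nucleus encodes all other subunits, whereas complex II is wholly nuclear. Human embryonic stem cells are known for a strong use of glycolysis beside respiration.

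The genes described here were all those in the deposited feature list whose symbol marks a subunit of these complexes, namely MT-ND, MT-CO, MT-CYB and MT-ATP genes of the mitochondrial DNA and NDUFA, NDUFB, NDUFC, NDUFS, NDUFV, SDHA to SDHD, UQCR, COX4 to COX8, ATP5F1, ATP5M and ATP5P genes of the nucleus. There were 99 such members among 33538 genes, of which 13 were mitochondrially encoded and 86 nuclear. The nuclear members fell into 36 of complex I, 4 of complex II, 9 of complex III, 19 of complex IV and 18 of complex V. NDUFA4 and NDUFA4L2 were counted with complex IV, where their proteins are now placed. The subunits CYC1 and NDUFAB1 carry other symbols and were not members.

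Transcripts were counted in single cells of the human embryonic stem cell line H1 after 48 h in mTeSR1 medium with 50 ng/ml BMP4, a differentiation signal. The library labelled WT (WT-labelled below) was made from unmodified H1 cells and that labelled GATA3 KO (KO-labelled) from the line KO-GATA3-06, a single clone that had been targeted at GATA3 with Cas9 in an H1 line carrying an inducible Cas9 cassette, so that clone, cassette and genotype differ together and cannot be told apart. One protocol text of the library labelled WT gives 1 h of BMP4, while its title and recorded duration give 48 h, which was used. Values are UMIs (unique molecular identifiers, each a captured 3′ end of a transcript) scaled to a sum of 1000000 over the cells of a library or group (CPM), with exact Poisson 95% intervals, and ratios are KO-labelled over WT-labelled, as log2 after adding 1 CPM to each.

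There was 1 library per group, so no test was possible, no p-value is given, and every interval covers counting error only. The kept cells numbered 2519 of 3802 in the WT-labelled library and 4450 of 6221 in the KO-labelled one, with medians of 44415 and 43131.5 UMIs per cell, and 8 barcodes occurred in both libraries. One of the 2 limits that chose these cells, at most 25% mitochondrial UMIs, was itself set on the 13 mitochondrial members. GATA3 had 12.7 CPM (12.0 to 13.4) and 10.9 CPM (10.5 to 11.4), which does not check the labels, since a 3′ count does not read the edited part of the gene. The stem cell marker POU5F1 was present at 918 and 1480 CPM, and SOX2 with 150 and 389 CPM, so the level of these markers differed between the libraries too. In such sums, fewer cells of a type and less RNA per cell cannot be told apart.

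The transcripts of the respiratory chain and the ATP synthase together came to 142946 CPM in the WT-labelled and 137192 CPM in the KO-labelled library, a log2 ratio of -0.06. The 13 mitochondrial members summed to 116960 CPM (116893 to 117027) in the WT-labelled library and 112816 CPM (112766 to 112866) in the KO-labelled one, a log2 ratio of -0.05. The 86 nuclear members summed to 25986 CPM (25955 to 26018) and 24376 CPM (24353 to 24400), for a difference on the log2 scale of -0.09. Both sums were thus slightly lower in the KO-labelled library. Under these sums the counted subunits had ratios from -0.94 to 1.56, and 1 of the 13 mitochondrial genes, MT-ND1, stood apart from the other 12.

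Of the 99 members, 90 reached a mean of 20 CPM over the libraries and entered the counts, as did 5144 genes in all. A member is counted as higher or lower where its log2 ratio was at least 0.32 above or below 0. In the KO-labelled library 12 members were higher, 13.3% beside 27.4% of all genes, and 19 were lower, 21.1% beside 18.5% of all genes. Among the higher, UQCRHL had 14.0 CPM in the WT-labelled library and reached the mean of 20 CPM only through the KO-labelled one. The median ratio was -0.06 over the members and 0.06 over all genes. The members' share of higher calls was thus below the background and their share of lower calls near it.

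**Figure D1:**
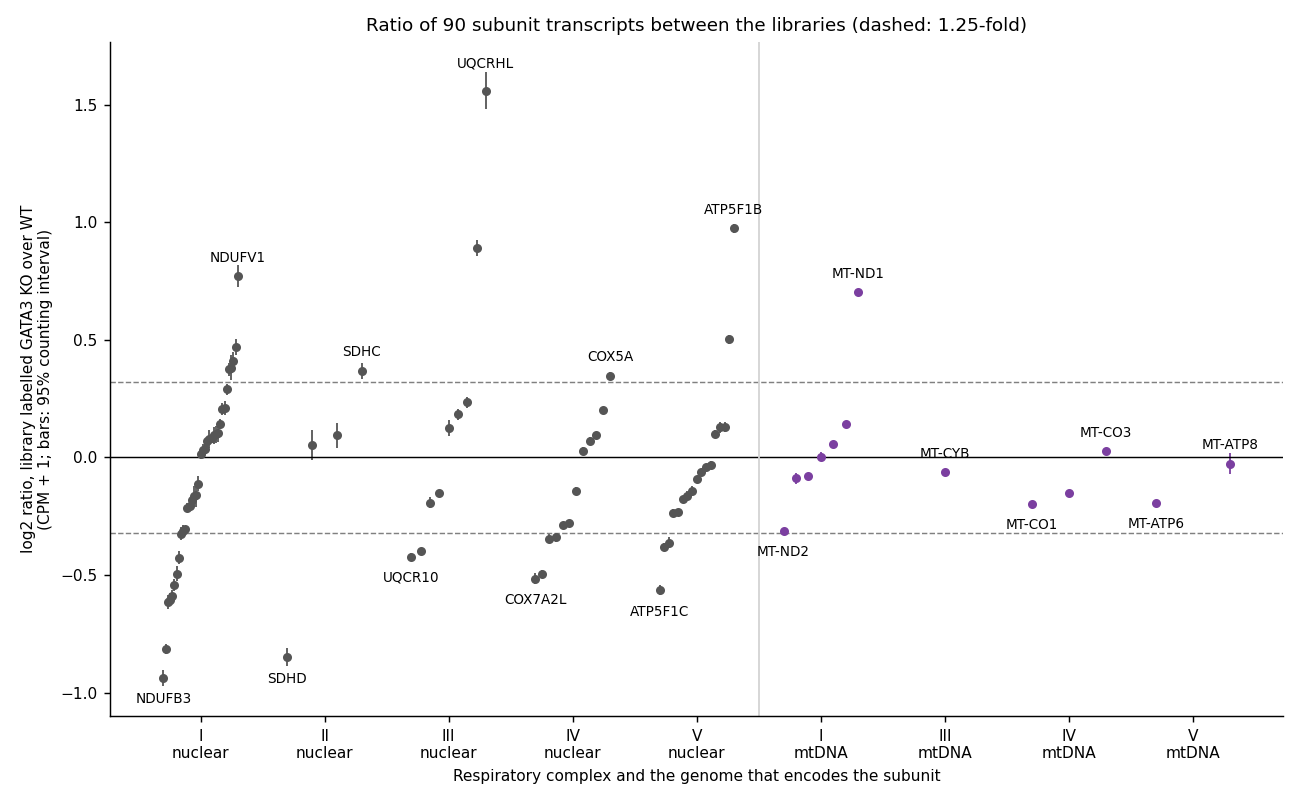
Log2 ratio of CPM plus 1, KO-labelled over WT-labelled library, for the 90 members at 20 CPM or more, by complex and encoding genome. Points are genes in rising order within each column, bars are 95% counting intervals, and dashed lines mark 0.32 above and below 0. The nuclear columns spread from -0.94 for NDUFB3 to 1.56 for UQCRHL, while 12 of 13 mitochondrial genes lie inside the dashed lines.

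Complex I oxidises NADH, and its nuclear members are given here by place in the enzyme. This division was drawn after the values had been seen. The 7 nuclear core subunits, which carry the flavin and the iron-sulphur clusters, held 4 members that were higher and 0 that were lower, with a median ratio of 0.37, where 27.4% of all genes were higher and 18.5% lower. NDUFV1 (ENSG00000167792, chromosome 11, 67605653 to 67612554 in GRCh38), the subunit that binds NADH and the flavin, had 45.7 CPM (44.4 to 47.1) in the WT-labelled library and 78.7 CPM (77.4 to 80.1) in the KO-labelled one, a log2 ratio of 0.77 (0.72 to 0.82). NDUFS3 had 91.3 and 127 CPM, a log2 ratio of 0.47.

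The iron-sulphur subunits NDUFS7 and NDUFS8 lay close behind. NDUFS7 had 87.6 and 117 CPM (0.41), and NDUFS8 had 161 and 208 CPM (0.37). NDUFV2 and NDUFS1, also of the core, were inside the limit of 0.32, at -0.21 and -0.16.

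The accessory subunits, which surround this core, held more lower than higher members, and 18 were inside the limit. Among the 28 that reached 20 CPM, 1 was higher and 9 were lower, beside 27.4% and 18.5% of all genes, with a median ratio of -0.14. NDUFB3 (ENSG00000119013, chromosome 2, 201071433 to 201085750), a subunit of the membrane arm, had the lowest ratio of the counted members, with 154 CPM (152 to 157) and 80.1 CPM (78.8 to 81.4), for a difference on the log2 scale of -0.94 (-0.97 to -0.90). NDUFC2, which lies in the membrane arm as well, had 364 and 207 CPM, a log2 ratio of -0.82.

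The other lower accessory subunits were NDUFA5 at -0.61, NDUFA13 at -0.60, NDUFB8 at -0.59, NDUFC1 at -0.54, NDUFB5 at -0.49, NDUFA11 at -0.43 and NDUFA12 at -0.32. NDUFA1 and NDUFB4, both at -0.31, lay just inside the limit. NDUFA9, which borders the site where ubiquinone enters, was the single higher accessory subunit, with 40.3 and 52.9 CPM (0.38). NDUFA7 differed by more than any of these, with 22.8 CPM (21.9 to 23.8) and 8.73 CPM (8.30 to 9.18), for a difference on the log2 scale of -1.29, but its mean of the libraries was under 20 CPM and it was in no count. The division into core and accessory subunits was drawn after the values had been seen, so it describes these libraries and is no test. Summed over all 36, nuclear complex I had 7537 and 6865 CPM, a log2 ratio of -0.13.

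Complex II, succinate dehydrogenase, which also belongs to the citric acid cycle, had its 4 subunits at ratios from -0.85 to 0.37. SDHD (ENSG00000204370, chromosome 11, 112086824 to 112120016), 1 of the 2 membrane anchors, had 103 CPM (101 to 105) in the WT-labelled library and 56.8 CPM (55.6 to 57.9) in the KO-labelled one, a log2 ratio of -0.85 (-0.89 to -0.81). SDHC, the other anchor, went the opposite way, with 101 CPM (99.0 to 103) and 131 CPM (129 to 132), for a difference on the log2 scale of 0.37. The catalytic subunits differed little, with 28.8 and 29.9 CPM (0.05) for the flavoprotein SDHA and 44.0 and 47.0 CPM (0.09) for the iron-sulphur protein SDHB. SDHC and SDHD thus had nearly equal levels in the WT-labelled library and differed by more than their intervals in the KO-labelled one.

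Complex III, which passes electrons from ubiquinol to cytochrome c, held 2 higher and 2 lower nuclear members of 9, beside the same 27.4% and 18.5% of all genes. UQCRC1 (ENSG00000010256, chromosome 3, 48599002 to 48610976), a core subunit on the matrix side, had 88.9 CPM (87.1 to 90.8) and 166 CPM (164 to 168), for a difference on the log2 scale of 0.89 (0.86 to 0.92). Its partner UQCRC2 had 102 and 111 CPM (0.12). UQCRHL had 14.0 and 43.3 CPM, the highest ratio of all members at 1.56, but it is a near-identical copy of UQCRH, so reads can be misplaced between them and its value is uncertain. It was also under 20 CPM in the WT-labelled library and entered the counts only through the KO-labelled one.

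The hinge protein UQCRH itself had 1425 and 1282 CPM (-0.15). The small subunits UQCR10 and UQCRB, at -0.42 and -0.40, were lower, and UQCRFS1, the iron-sulphur protein, stood at 0.23. CYC1, the cytochrome c1 of this complex that the symbol rule leaves out, had 112 and 166 CPM, a log2 ratio of 0.56.

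Complex IV, cytochrome c oxidase, held 1 higher and 4 lower nuclear members of the 12 that reached 20 CPM, with a median ratio of -0.21, again beside 27.4% and 18.5% of all genes. COX5A had 444 and 565 CPM, a log2 ratio of 0.35. COX7A2L, which links complexes III and IV, had 236 and 165 CPM (-0.52), and COX7B had 491 and 347 CPM (-0.50). COX6C at -0.35 and COX8A at -0.34 were lower as well, and NDUFA4 and COX7A2 lay inside the limit at -0.29 and -0.28.

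For the subunits of complex IV with tissue-bound isoforms, these cells held nearly only the ubiquitous form. COX4I1 had 619 and 712 CPM, while 4 UMIs of COX4I2, the lung form, were counted in each library. COX6A1 had 434 and 443 CPM beside 0.38 and 0.22 CPM of the muscle form COX6A2. COX7A2 had 611 and 503 CPM beside 0.80 and 0.29 CPM of the muscle form COX7A1.

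COX6B1 had 437 and 458 CPM beside 0.59 and 0.50 CPM of the testis form COX6B2. COX8A had 362 and 286 CPM beside 0.19 and 0.06 CPM of COX8C, and COX7B2 was seen with 1 and 2 UMIs. NDUFA4 had 1310 and 1073 CPM beside 0.13 and 0.16 CPM of NDUFA4L2, a form known to be induced by low oxygen. These 7 rare forms were under 1 CPM in both libraries, and their ratios were not read.

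The ATP synthase held 2 higher and 3 lower nuclear members of the 17 counted, beside 27.4% and 18.5% of all genes. In the catalytic F1 head, ATP5F1B, the beta subunit with the catalytic sites (ENSG00000110955, chromosome 12, 56638175 to 56645984), had 292 CPM (289 to 296) and 575 CPM (572 to 579), for a difference on the log2 scale of 0.97 (0.95 to 0.99). Its partner ATP5F1A, the alpha subunit, had 331 and 468 CPM (0.50). ATP5F1C, the gamma subunit that forms the shaft between them, had 330 and 223 CPM, a log2 ratio of -0.56 (-0.59 to -0.54).

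ATP5F1D and ATP5F1E were inside the limit at 0.13 and -0.04. The 3 genes for the ring subunit c, whose mature proteins are identical, stood at -0.36 for ATP5MC1, -0.23 for ATP5MC2 and -0.18 for ATP5MC3, and of these ATP5MC1 was past the limit. ATP5MD, a small membrane subunit, had 471 and 361 CPM (-0.38). Summed, nuclear complex V differed least of the complexes, with 7233 and 7044 CPM (-0.04). The 5 F1 subunits summed to 1880 and 2204 CPM (0.23) and the other nuclear members of complex V to 5353 and 4840 CPM (-0.15), a division that was also drawn after the values had been seen.

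The promoters of the nuclear members were searched for 3 short motifs on both strands, in windows of 250 bases before to 50 after the start from RefSeq (GRCh38.p14). The letters were GCGCANGCG for the core of the NRF1 site, CCGGAAG for ETS factors and AAGATGGCG for YY1, and 70 of 86 nuclear members had a window. The NRF1 letters were in 31.4% of member windows, beside 8.05% of all 27305 windows and 18.0% of those of genes at 20 CPM or more. The ETS letters were in 28.6%, beside 10.7% and 23.5%, and the YY1 letters in 11.4%, beside 1.85% and 5.25%. Of the 8 higher members with a window 3 held the NRF1 letters, 1 the ETS letters and 3 the YY1 letters, and of the 15 lower members 5, 4 and 0 held them. The RefSeq starts can differ from the gene positions given here. For NDUFA5, 1 of the 15, the bases at chr7:123601652-123601801 lay outside the annotated gene, 123536997 to 123557904.

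The last 150 bases before the start of 4 members are shown, 5′ to 3′ on the strand of the gene and with motif letters in capitals. They are UQCRC1 (chr3:48609647-48609796, minus strand) and NDUFS3 (chr11:47578924-47579073, plus strand), which were higher, and SDHD (chr11:112086723-112086872, plus strand) and NDUFB3 (chr2:201071851-201072000, plus strand), which were lower.
UQCRC1: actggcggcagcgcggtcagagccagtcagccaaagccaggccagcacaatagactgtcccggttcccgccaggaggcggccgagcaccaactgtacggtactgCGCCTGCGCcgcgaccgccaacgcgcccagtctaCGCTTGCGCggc
NDUFS3: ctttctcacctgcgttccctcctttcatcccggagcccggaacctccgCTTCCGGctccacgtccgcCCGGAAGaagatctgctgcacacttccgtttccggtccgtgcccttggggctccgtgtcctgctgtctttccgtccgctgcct
SDHD: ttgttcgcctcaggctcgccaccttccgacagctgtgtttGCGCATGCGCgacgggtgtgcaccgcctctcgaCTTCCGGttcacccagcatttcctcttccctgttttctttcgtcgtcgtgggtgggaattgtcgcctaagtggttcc
NDUFB3: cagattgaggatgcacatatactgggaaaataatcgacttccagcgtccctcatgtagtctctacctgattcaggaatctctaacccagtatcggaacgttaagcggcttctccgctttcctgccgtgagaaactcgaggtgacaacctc

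In the bases shown UQCRC1 held the NRF1 letters in 2 places, with the YY1 letters elsewhere in its longer window, and NDUFS3 the ETS letters in 2 places. SDHD, whose ratio was the second lowest of the counted members, held both the NRF1 letters, here a palindrome read on each strand, and the ETS letters, and the window of NDUFB3 held no letters of the 3 motifs. The NRF1 and ETS letters thus occurred in promoters of members on either side. The YY1 letters were in none of the 15 lower ones. NDUFA7, at -1.29 but in no count because of its low level, did hold them. With these letters in 11.4% of all member windows, 15 windows are too few to read a difference from. Such a match is a description of letters and does not show binding.

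The mitochondrial DNA is transcribed as long precursors that are cut into shorter messengers, and 12 of its 13 protein genes had ratios inside the limit of 0.32. MT-ND1 (ENSG00000198888, chromosome M, 3307 to 4262), a complex I subunit at the ubiquinone site, had 3743 CPM (3731 to 3755) in the WT-labelled library and 6095 CPM (6084 to 6107) in the KO-labelled one, a log2 ratio of 0.70. MT-ND2, the next protein gene on the same strand (4470 to 5511), had 3075 and 2475 CPM, a log2 ratio of -0.31. These 2 neighbours therefore differed in opposite directions.

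The other complex I genes of the mitochondrial DNA stood at -0.09 for MT-ND6, -0.08 for MT-ND3, 0.00 for MT-ND4L, 0.06 for MT-ND4 and 0.14 for MT-ND5. The cytochrome b gene MT-CYB had 12292 and 11768 CPM (-0.06). The cytochrome c oxidase genes stood at -0.20 for MT-CO1, -0.15 for MT-CO2 and 0.03 for MT-CO3, and the ATP synthase genes at -0.19 for MT-ATP6 and -0.03 for MT-ATP8. Since MT-ATP8 overlaps MT-ATP6 and MT-ND4L overlaps MT-ND4, their counts can be shared.

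**Figure D2:**
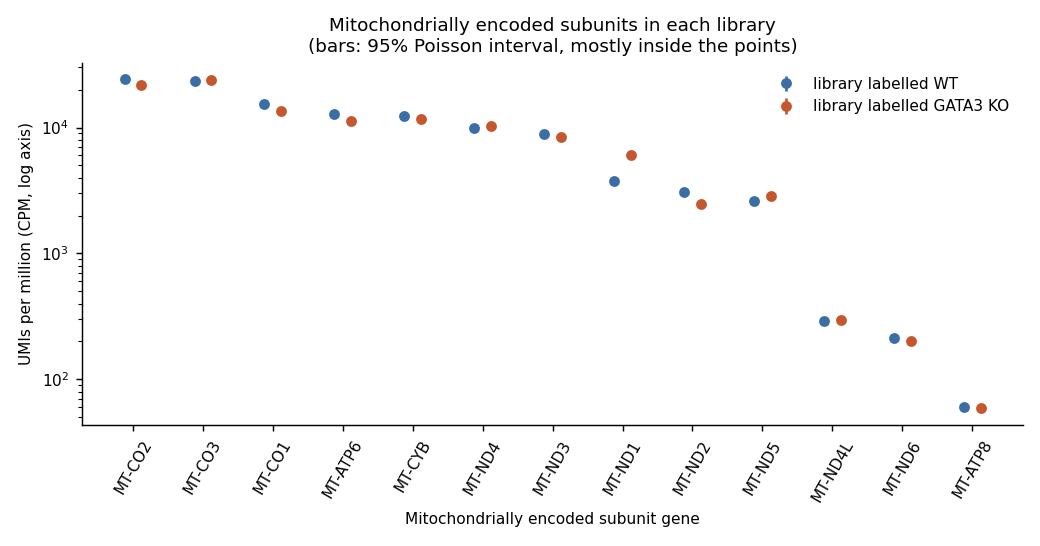
CPM of the 13 mitochondrially encoded subunit genes (log axis) in the WT-labelled and KO-labelled libraries, with 95% Poisson intervals that are mostly smaller than the points. MT-ND1 shows the largest ratio, 3743 against 6095 CPM, and MT-ND2 the largest in the other direction.

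By complex, the mitochondrial sum of complex I was higher in the KO-labelled library, at 28736 and 30651 CPM (0.09), and without MT-ND1 it was 24992 and 24556 CPM (-0.03). The sums of complexes IV and V were lower, at 63009 and 59082 CPM (-0.09) and 12923 and 11314 CPM (-0.19). In shares of the mitochondrial UMIs, which do not depend on the nuclear genes, MT-ND1 took 3.20% and 5.40% and MT-ND2 2.63% and 2.19%. The exact binomial intervals were 3.19% to 3.21% and 5.39% to 5.41% for MT-ND1.

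The difference in MT-ND1 ran through the cells and was not carried by a few of them. Among kept cells with at least 1000 mitochondrial UMIs (2097 and 3861), the median share of MT-ND1 in a cell was 3.15% in the WT-labelled library and 5.43% in the KO-labelled one. The 75th percentile of cells was 3.58% in the first, and the 5th percentile was 3.88% in the second. The share was also 5.79% against 2.74% in the cells removed for more than 25% mitochondrial UMIs, and 5.49% (5.04% to 5.96%) against 2.53% (2.05% to 3.08%) in the cells with under 1% of them.

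To see whether these differences held within cell states, cells with at least 10000 UMIs were grouped by marker levels alone. SOX2-high cells, with SOX2 at 200 CPM or more and without the other markers, numbered 681 in the WT-labelled and 3008 in the KO-labelled library. Streak-marker cells had MIXL1, EOMES and TBXT, regulators of the primitive streak, at a sum of 100 CPM or more, with 792 and 86 cells. The remaining group compared had TFAP2A, HAND1 and ISL1, regulators of amnion and extraembryonic fates, at a sum of 100 CPM or more, with 118 and 512 cells.

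The streak markers and the amnion and trophectoderm markers not used in these rules went with the groups in both libraries, as sums. Summed over MESP1, GSC, CER1, FGF8, WNT3 and LHX1, streak-marker cells had 311 and 114 CPM beside 14.5 and 5.3 CPM in SOX2-high cells. Summed over GATA2, GATA3, KRT7, KRT18, CDX2, VTCN1 and IGFBP3, the TFAP2A/HAND1/ISL1 cells had 3149 and 2268 CPM beside 468 and 558 CPM in SOX2-high cells, and KRT18 alone gave 3012 and 2138 CPM of the sum. POU5F1, DPPA4, LIN28A, SOX21 and USP44 summed to 1981 and 2547 CPM in SOX2-high and 1483 and 2403 CPM in streak-marker cells. Their highest gene was not higher in SOX2-high cells, at 895 and 1480 CPM beside 900 and 1681 CPM. The endoderm genes SOX17, FOXA2 and GATA4 summed to 23.7 and 8.34 CPM in streak-marker cells. In TFAP2A/HAND1/ISL1 cells they had 22.2 and 0.57 CPM, so they did not part these groups in the WT-labelled library. The stress genes FOS, JUN, DDIT3 and HSPA1A summed to 94.9 and 99.6 CPM in TFAP2A/HAND1/ISL1 cells and to 40.8 and 50.0 CPM in SOX2-high cells. The level of these markers within a group of the same name therefore differed between the libraries, and its part in the results was not tested.

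In SOX2-high cells 10 of 90 members were higher in the KO-labelled library, beside 24.7% of all genes, and 23 were lower, beside 19.2%. In streak-marker cells 13 were higher, beside 27.9%, and 22 lower, beside 19.2%. In TFAP2A/HAND1/ISL1 cells 12 were higher, beside 35.1%, and 26 lower, beside 14.3%. Shares of the 90 members ran from 11.1% to 14.4% for higher and from 24.4% to 28.9% for lower calls.

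In each of the 3 groups, 8 members were higher, namely UQCRHL, ATP5F1B, UQCRC1, NDUFV1, MT-ND1, ATP5F1A, NDUFS3 and NDUFS8. UQCRHL, of uncertain value, had 13.7, 14.2 and 14.7 CPM in the WT-labelled groups and entered the counts only through the KO-labelled library. In each of the 3 groups 19 were lower, namely NDUFB3, SDHD, NDUFC2, NDUFA5, NDUFA13, NDUFB8, ATP5F1C, NDUFC1, COX7A2L, COX7B, NDUFB5, NDUFA11, UQCR10, UQCRB, ATP5MD, COX6C, COX8A, COX7A2 and MT-ND2. Of all genes, 19.7% were higher and 9.95% lower in all 3 groups, beside 8.89% and 21.1% of the members. The groups are cells of the same 2 libraries, so they are not independent of each other. Scaling by TMM, which sets aside the most extreme genes, instead of by the total moved each ratio by 0.06 in SOX2-high, -0.10 in streak-marker and -0.09 in TFAP2A/HAND1/ISL1 cells. With it 7 members were higher and 16 lower in all 3 groups, since NDUFS8 left the first list and COX6C, COX7A2 and MT-ND2 left the second. Within groups the higher and lower members then numbered 12 and 16 in SOX2-high, 8 and 25 in streak-marker and 8 and 36 in TFAP2A/HAND1/ISL1 cells. The shares of all genes were computed for scaling by the total and not for TMM. The counts with TMM thus have no background beside them and are not read as a result about the members.

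Members at either end of the ratios were past the limit in each group. ATP5F1B had 307 and 587 CPM in SOX2-high cells, 284 and 549 CPM in streak-marker cells, and 274 and 530 CPM in TFAP2A/HAND1/ISL1 cells, with ratios of 0.93, 0.95 and 0.95. NDUFB3 had 147 and 77.0 CPM, 150 and 84.9 CPM, and 186 and 97.8 CPM, with ratios of -0.92, -0.81 and -0.92. The ratios of SDHD were -0.96, -0.63 and -0.72, and those of MT-ND1 were 0.64, 0.59 and 0.50.

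**Figure D3:**
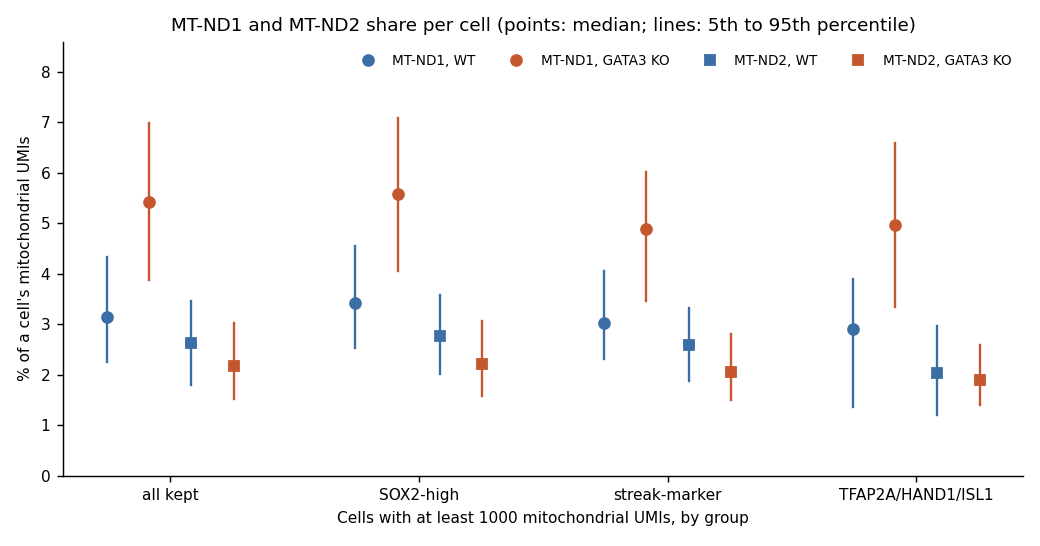
Share of a cell's mitochondrial UMIs taken by MT-ND1 (circles) and MT-ND2 (squares) in all kept cells and in 3 lineage-marker groups, for cells with at least 1000 mitochondrial UMIs. Points are medians, lines run from the 5th to the 95th percentile of cells, blue is the WT-labelled library and red the KO-labelled one. In each group the MT-ND1 median is higher in red and the MT-ND2 median lower.

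The sum of the mitochondrial members was 119488 and 115990 CPM in SOX2-high cells (-0.04, and 0.01 with TMM or stricter marker limits), and 115147 and 110657 CPM in streak-marker cells (-0.06, and -0.16 with TMM). In TFAP2A/HAND1/ISL1 cells it was 119328 CPM in the WT-labelled library and 100872 CPM in the KO-labelled one, a log2 ratio of -0.24 (-0.33 with TMM). There MT-CO1, at 16710 and 12749 CPM (-0.39), and MT-CO2, at 25525 and 19897 CPM (-0.36), were lower, and MT-ND5, at 1363 and 2280 CPM (0.74), was higher. The nuclear sum stood at -0.12, -0.09 and -0.11 in the 3 groups, at -0.06, -0.19 and -0.20 with TMM, and at -0.09, -0.05 and -0.04 with all deposited cells, so its direction held and its size did not.

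Between groups of the same library, TFAP2A/HAND1/ISL1 cells had less mitochondrial RNA than SOX2-high cells in the KO-labelled library, at 100872 beside 115990 CPM, a log2 ratio of -0.20. In the WT-labelled library the sums were 119328 and 119488 CPM, and the sign of this difference changed with the processing, from -0.07 to 0.13 over the alternatives tried, so no direction is read from it. Per cell, the median mitochondrial share was 11.5% in SOX2-high and 11.3% in TFAP2A/HAND1/ISL1 WT-labelled cells, and 11.3% and 9.46% in KO-labelled ones. The spread among cells was wide, from 2.98% to 18.7% between the 5th and 95th percentile of the 118 TFAP2A/HAND1/ISL1 WT-labelled cells.

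**Figure D4:**
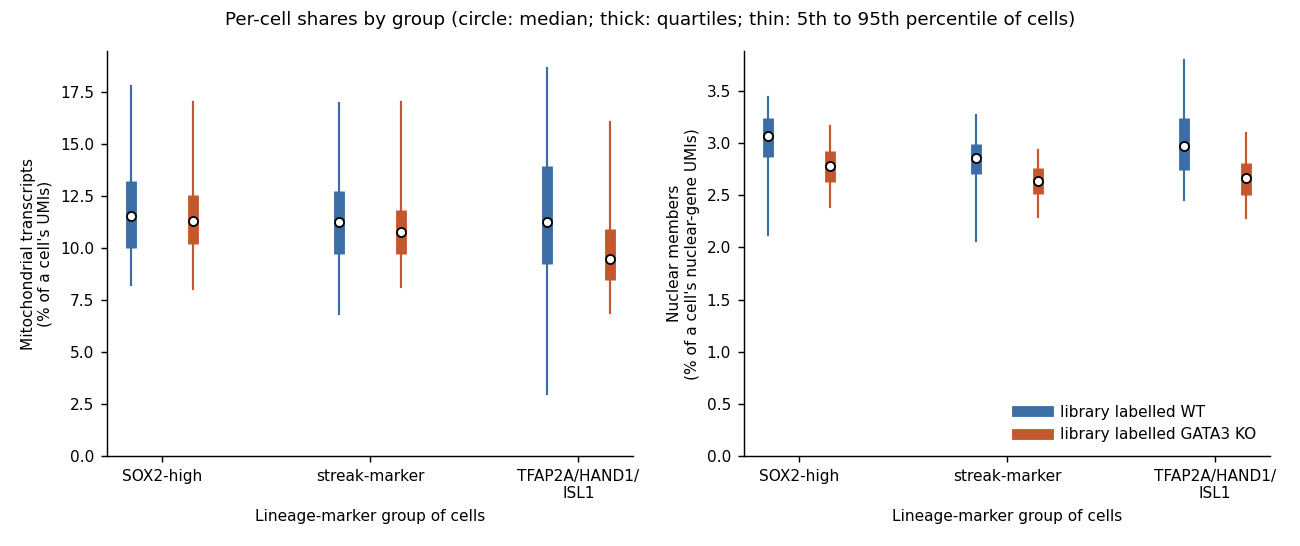
Left, mitochondrial UMIs as a percentage of a cell's UMIs, and right, nuclear members as a percentage of its nuclear-gene UMIs, in 3 lineage-marker groups of the WT-labelled (blue) and KO-labelled (red) libraries. Circles are medians, thick bars quartiles and thin lines the 5th to 95th percentile of cells. The red median of the nuclear share is lower in each group, and the red mitochondrial median is lowest in TFAP2A/HAND1/ISL1 cells, at 9.46%.

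In TFAP2A/HAND1/ISL1 WT-labelled cells, 5 members were higher than in SOX2-high cells, beside 12.2% of all genes, and 10 were lower, beside 34.6%. In KO-labelled ones 2 were higher, beside 12.6%, and 8 were lower, beside 18.5%. The lower ones included 4 mitochondrial genes in the first and 5 in the second.

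MT-ND5 had 2743 CPM in SOX2-high and 1363 CPM in TFAP2A/HAND1/ISL1 WT-labelled cells (-1.01), and 3027 and 2280 CPM in KO-labelled ones (-0.41). MT-ND2 stood at log2 ratios of -0.40 and -0.43, MT-ND4L at -0.51 and -0.37 and MT-ATP8 at -0.72 and -0.48. The counts of MT-ND4L and MT-ATP8 can be shared with MT-ND4 and MT-ATP6, which they overlap. MT-ATP8 had only 175 UMIs in the TFAP2A/HAND1/ISL1 WT-labelled cells. MT-ND1 stood at -0.27 and, with 6441 and 4861 CPM in KO-labelled cells, at -0.41, which made it the fifth lower one there. MT-CYB, at 0.18 and 0.01, was not lower in either. The mitochondrial genes thus did not move together between these cell states. ATP5PB, a stalk subunit of the ATP synthase, was the most raised member in the WT-labelled library, with 175 and 258 CPM (0.56), and had 200 and 232 CPM (0.22) in the KO-labelled one. The next were NDUFA9 (0.40) and ATP5MG (0.38) in the WT-labelled library, and in the KO-labelled one NDUFC2 (0.38), NDUFB3 (0.34) and SDHB (0.32, just under the limit before rounding). TMM added 0.13 to the ratios in the first and 0.05 in the second. It gave 11 higher and 4 lower members in the WT-labelled library, MT-ND2 no longer among the lower. In the KO-labelled one it gave 4 higher and 5 lower, MT-ND4L no longer among the lower. Here too the shares of all genes with TMM were not computed.

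Streak-marker cells differed less from SOX2-high cells. In the WT-labelled library 0 members were higher, beside 8.42% of all genes, and 3 were lower, beside 10.8%, and in the KO-labelled one 1 was higher, beside 9.0%, and 1 lower, beside 9.90%. The mitochondrial sum stood at -0.05 (0.01 with TMM) and -0.07 and the nuclear sum at -0.10 and -0.06. SDHB, the single higher member, had 44.5 and 58.1 CPM (0.38) in the KO-labelled library and 39.7 and 47.0 CPM (0.24) in the WT-labelled one.

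COX7C (ENSG00000127184, chromosome 5, 86617928 to 86620962), a small subunit of complex IV, was the single member past the limit in all 4 comparisons of streak-marker or TFAP2A/HAND1/ISL1 cells with SOX2-high cells. In the WT-labelled library it had 1822 CPM in SOX2-high, 1230 CPM in streak-marker and 1131 CPM in TFAP2A/HAND1/ISL1 cells, with log2 ratios to SOX2-high cells of -0.57 (-0.58 to -0.55) and -0.69 (-0.73 to -0.65). In the KO-labelled library it had 1673, 1231 and 1199 CPM, with ratios of -0.44 and -0.48. Within SOX2-high cells it was also higher in those with NANOG under 50 CPM, at 1985 beside 1682 CPM (0.24) in the WT-labelled library and 1729 beside 1606 CPM (0.11) in the KO-labelled one.

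The nuclear sum of complex IV followed COX7C in part. In streak-marker over SOX2-high cells it stood at -0.21 and -0.19, and without COX7C at -0.12 and -0.11. In TFAP2A/HAND1/ISL1 over SOX2-high cells it stood at -0.16 and -0.12, and without COX7C at -0.04 and -0.03. COX5A, with 500 and 393 CPM in SOX2-high and streak-marker WT-labelled cells (-0.35), and SDHA, with 31.7 and 24.3 CPM (-0.37), were the other 2 members past the limit there. With TMM both were inside it, at -0.29 and -0.31, and COX7C was left as the 1 lower member.

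Across single cells with at least 10000 UMIs, the share of the mitochondrial members did not follow that of the nuclear ones. Pearson's r between them was -0.02 over 2173 WT-labelled cells and -0.06 over 4038 KO-labelled (Spearman's rho 0.07 and 0.16). The nuclear members of the different complexes went together, with r from 0.51 to 0.75 and from 0.37 to 0.60 between pairs of complexes I, III, IV and V. This was not particular to the complexes. All nuclear members together had r of 0.51 and 0.43 with the glycolysis genes listed below, and of 0.29 and 0.39 with cytosolic ribosomal protein genes. The points share their library, the mitochondrial share is of all UMIs of a cell and the nuclear ones are of its nuclear-gene UMIs, and these values are a description.

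The cells with under 1% mitochondrial UMIs, 142 WT-labelled and 439 KO-labelled, still held the nuclear members. Their median share of nuclear-gene UMIs was 3.36% and 2.78%, beside 2.88% and 2.76% in cells with 10% to 15% mitochondrial UMIs. In the 271 and 506 cells with over 25% it was 2.53% and 1.81%. Depth moved with these sets, since the medians were 3957 and 5404 UMIs in the first and 7183 and 8690 UMIs in the last, and its part in the shares was not tested.

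The base composition of the transcripts moved with the ratios between the libraries, for members and for all genes. Over 77 nuclear members, the log2 ratio and the GC content of the annotated transcript had a Pearson's r of 0.34 and a Spearman's rho of 0.36, and over 5136 genes of any kind 0.48 and 0.54. Genes are not independent replicates. The median ratio of all genes rose from -0.23 under 40% GC to 0.48 at 60% GC or more, and that of the nuclear members from -0.34 to 0.14.

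In each range of GC the median of the nuclear members lay under that of all genes. The core subunits of complex I, with a median GC of 53.7% beside 48.6% for the accessory ones, were the richer in GC, while ATP5F1A stood at 45.5% and ATP5F1B at 50.6%, beside a median of 46.9% over the 77 nuclear members. The part of base composition in the ratios was not tested. With transcript length, Pearson's r was 0.00 for the nuclear members and 0.00 for all genes, and Spearman's rho was 0.13 and -0.03.

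**Figure D5:**
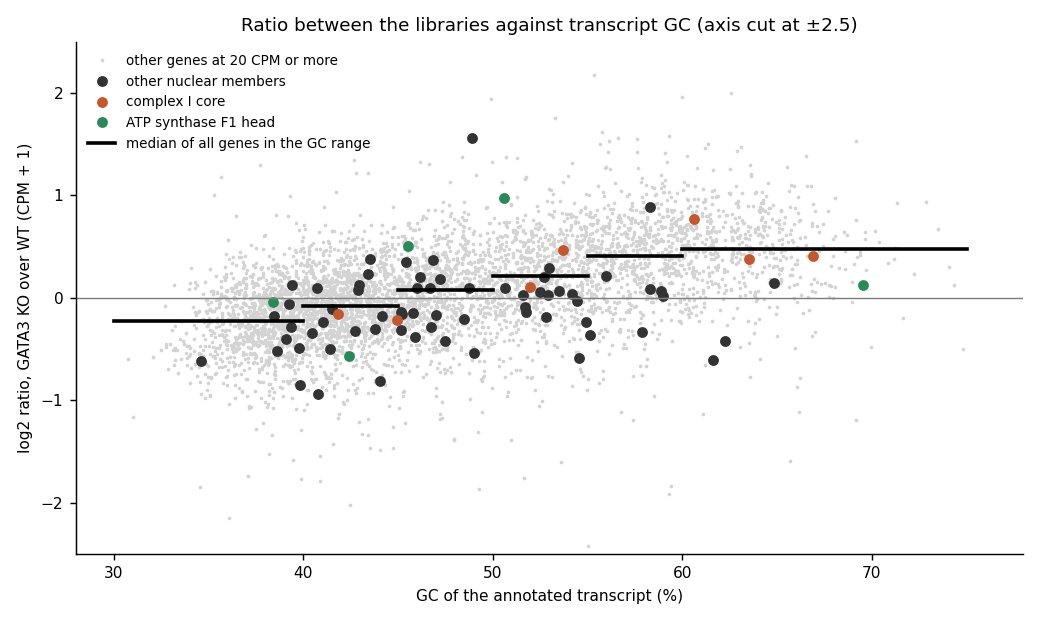
Log2 ratio of CPM plus 1, KO-labelled over WT-labelled library, against the GC content of the annotated transcript, for genes at 20 CPM or more (grey) and nuclear members (large points, with the complex I core in red and the F1 head of the ATP synthase in green). Black bars are medians of all genes in 6 ranges of GC, which rise from -0.23 to 0.48; 10 genes beyond ±2.5 are not drawn.

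Genes of related function, given beside the members and not tested against them, did not all show the same balance. All genes, 27.4% of them higher and 18.5% lower with a median ratio of 0.06, are the background for each list here and below. Of 16 genes of glycolysis 8 were higher and 3 lower in the KO-labelled library, with a median ratio of 0.40. Among them were GAPDH, with 3704 and 6137 CPM (0.73), ENO1, with 744 and 1283 CPM (0.79), and the pyruvate kinase PKM, with 331 and 571 CPM (0.79), while lactate dehydrogenase A stood at -0.39. Of 12 citric acid cycle genes 4 were higher and 2 lower, and SUCLA2, a succinyl-CoA ligase subunit, had 136 and 53.3 CPM (-1.34).

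Of 80 cytosolic ribosomal protein genes 12 were higher and 19 lower, with a median of -0.16, much as for the members. Of 74 mitochondrial ribosomal protein genes 13 were higher and 12 lower, and of 32 assembly factors 5 were higher and 5 lower. SDHAF3, an assembly factor of complex II, had 75.5 and 39.4 CPM (-0.92), and ECSIT, of complex I, had 20.0 and 37.0 CPM (0.86). Of 5 genes for the expression of the mitochondrial DNA 0 were higher and 1 lower, which was TFB2M, a factor of its transcription, with 28.4 and 16.4 CPM (-0.76), while TFAM, which packs the DNA, had 104 and 108 CPM (0.07).

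Of the factors known to bind promoters of nuclear respiratory genes, YY1 had 164 and 174 CPM (0.09) and GABPB1, a partner of the ETS factor GABPA, 27.5 and 20.1 CPM (-0.43). The coactivator gene PPRC1 had 17.1 and 26.9 CPM (0.62). Of the genes called in the lists of glycolysis, the citric acid cycle, assembly factors, mitochondrial DNA expression and regulators, PFKM, OGDH, DLST, ECSIT and PPRC1 were under 20 CPM in the WT-labelled library and TFB2M in the KO-labelled one, so they entered the counts only through the library where they were higher. GABPA itself, at 17.5 and 11.5 CPM (-0.57), NRF1, at 5.48 and 7.43 CPM, and PPARGC1A, at 0.61 and 1.15 CPM, were under 20 CPM. Of 4 subunits or partners with other symbols, CYC1 was higher and the other 3 were inside the limit.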

How the data were processed

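Single cells of 1 library labelled WT and 1 labelled GATA3 KO were measured with the 10x Genomics 3′ v3 chemistry. The authors aligned the reads with Cell Ranger 3.0.2 to GRCh38 and deposited raw UMI counts for 33538 genes in each called cell. Groups came from the deposited labels alone. The members and gene lists were chosen with earlier results of these data known.

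Cells with at most 7500 detected genes and at most 25% mitochondrial UMIs were kept, after the methods of the study. The kept cells held 99587274 and 175285931 UMIs. Doublets were not called, and the deepest 5% of cells were left out as an alternative. Counts were summed and divided by the total (CPM). Ratios used a pseudocount of 1 CPM, which understates changes of low genes, with intervals from the exact binomial of both counts. Calls were made among genes at a mean of 20 CPM or more and at a log2 ratio of at least 0.32 in size. The named members were the 13 mitochondrial genes, those past 0.32, the highest and lowest nuclear member of each complex, the isoform sets, the 4 subunits of complex II, and the 3 highest and 3 lowest in each group comparison; members of like role were added to set them beside these, and the regulators and genes of related lists that are named were picked after their values were seen. A 3′ UMI is 1 captured molecule, so levels were not divided by length. Positions, transcript GC and length came from GENCODE v44. The ratio and its interval were checked on simulated counts. Python 3.11.15 with numpy 2.4.6 and scipy 1.17.1 was used, and edgeR 4.0.16 gave TMM factors. Alternatives were the cell limits, averaging, scaling, the pseudocount, the level filter, the fold and the marker limits.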

Additional observations from a re-analysis of the deposited data

Results flagged for a closer look

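With 1 library per group, members whose ratio between the libraries went opposite ways in different lineage-marker groups, with both counting intervals clear of 0 and at least 0.32 between the log2 ratios, are given here; the difference itself was not tested. ATP5PB stood at 0.19 in SOX2-high cells and at -0.15 in TFAP2A/HAND1/ISL1 cells, on the log2 scale of the library labelled GATA3 KO over that labelled WT. MT-ND6, the single protein gene on the other strand of the mitochondrial DNA, stood at 0.08 in SOX2-high cells and at -0.30 in TFAP2A/HAND1/ISL1 cells. Seen the other way, MT-ND6 in TFAP2A/HAND1/ISL1 over SOX2-high cells stood at 0.10 in the library labelled WT and at -0.28 in that labelled GATA3 KO. The first group held 118 cells labelled WT.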

How the results depend on the processing

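With 1 library per group, all intervals cover counting error only, a difference between the libraries cannot be told from one between the clones or captures, and groups of 86 and 118 cells limit the group values. No paired analysis was possible because each group has 1 library and the comparisons come from no test. Of the values recomputed for sums and counts, 147 stayed inside the counting interval of the reported value and 90 moved outside it. Of those for named members, 362 stayed inside and 118 moved outside. With reported values taken as rounded, 4 sums, each under 0.32 in size, changed sign in 6 of these values. These were the mitochondrial sum of SOX2-high cells between the libraries (TMM, stricter marker limits) and that of streak-marker over SOX2-high cells in WT (TMM). The others were the nuclear sum of TFAP2A/HAND1/ISL1 over SOX2-high cells in WT (TMM, mean of per-cell CPM) and in KO (TMM). The mitochondrial sum of TFAP2A/HAND1/ISL1 over SOX2-high cells in WT was not counted among the 4. Its reported value of -0.002 has no sign once rounded, and its sign changed with the processing too, as given above. The cause was not tested.

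Values are log2 ratios in the order mitochondrial sum, then nuclear sum, unless named. With all deposited cells, KO over WT moved to -0.05 for the nuclear sum, -0.07 for complex I, -0.11 for III, -0.05 for IV and -0.01 for V; within groups to -0.03 and -0.09 in SOX2-high, and for the nuclear sum to -0.05 in streak-marker and -0.04 in TFAP2A/HAND1/ISL1 cells. Over SOX2-high cells it gave -0.02 (streak-marker, mitochondrial) and 0.04 and -0.07 (TFAP2A/HAND1/ISL1) in WT, and -0.05 and -0.18 for the mitochondrial sums in KO. With the gene limit alone the mitochondrial sum was -0.04 for KO over WT, -0.02 in SOX2-high cells, -0.04 and 0.02 over SOX2-high cells in WT, and -0.09 for streak-marker cells in KO. With the mitochondrial limit alone KO over WT was -0.07 and -0.05, with -0.07, -0.10, -0.04 and -0.01 for complexes I, III, IV and V; the nuclear sum was -0.08 in SOX2-high, -0.05 in streak-marker and -0.03 in TFAP2A/HAND1/ISL1 cells, whose mitochondrial sum was -0.27; over SOX2-high cells it gave -0.03, 0.04 and -0.07 in WT and -0.03 and -0.18 in KO. Without the deepest 5% of cells TFAP2A/HAND1/ISL1 over SOX2-high cells in WT gave -0.02 and -0.02.

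With the mean of per-cell CPM the nuclear sum was -0.13, and complexes I, III, IV and V were -0.18, -0.15, -0.13 and -0.07; groups gave -0.06 and -0.10 (SOX2-high), -0.03 (streak-marker, mitochondrial) and -0.18 and -0.15 (TFAP2A/HAND1/ISL1), and over SOX2-high cells -0.07 and -0.08 (streak-marker), -0.07 and 0.01 (TFAP2A/HAND1/ISL1) in WT and -0.04 (streak-marker, mitochondrial) in KO. With TMM KO over WT was -0.07 and -0.11, and complex I -0.15; groups gave 0.01 and -0.06 (SOX2-high), -0.16 and -0.19 (streak-marker) and -0.33 and -0.20 (TFAP2A/HAND1/ISL1), and over SOX2-high cells 0.01 and -0.04, 0.13 and 0.09 in WT and -0.15 and 0.02 (TFAP2A/HAND1/ISL1) in KO. Per nuclear-gene UMIs TFAP2A/HAND1/ISL1 cells gave -0.27 and -0.14, and -0.23 and -0.06 over SOX2-high cells in KO. With stricter marker limits the mitochondrial sums were 0.01, -0.02 and -0.18 in the SOX2-high, streak-marker and TFAP2A/HAND1/ISL1 groups, and over SOX2-high cells 0.00 in WT and -0.03 in KO for streak-marker cells, with -0.01 for the nuclear sum of TFAP2A/HAND1/ISL1 cells in WT. With looser ones they were -0.09 (streak-marker) and -0.20 and -0.15 (TFAP2A/HAND1/ISL1), and over SOX2-high cells -0.04 (streak-marker) and -0.02 (TFAP2A/HAND1/ISL1, nuclear) in WT, and -0.09 and -0.04 (streak-marker) and -0.17 (TFAP2A/HAND1/ISL1) in KO. With a higher UMI minimum TFAP2A/HAND1/ISL1 cells gave -0.26, and 0.02 over SOX2-high cells in WT. With NDUFA4 in complex I, complexes I and IV were -0.16 and -0.05. At 1.5-fold 5 members were higher and 6 lower.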
